A study of Caenorhabditis elegans with 6 samples.

Results

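Strains mutant for different entry points of nucleotide excision repair were set against each other: *xpc-1(tm3886)* larvae of strain TG2226 and *csb-1(ok2335)* larvae of strain RB1801. Messenger RNA of untreated, whole L1-stage *Caenorhabditis elegans*, the first larval stage, grown on NGM plates with *E. coli* as food, was purified with poly-T beads and sequenced in 2 libraries per strain. These 4 of the 6 libraries of the series entered the comparison, and the 2 wild-type (N2) libraries appear only as values beside it. Each strain is 1 allele in 1 line, so a difference between strains cannot be told apart from other differences between the lines, and nothing says that the replicates came from separate cultures. The p-values therefore measure only the spread between these libraries, which may be technical.

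Nucleotide excision repair removes bulky lesions such as ultraviolet photoproducts by cutting out a short stretch of the damaged strand. XPC recognises lesions anywhere in the genome, with RAD23 as its partner, whereas CSB acts where RNA polymerase II has stalled on a transcribed strand. Both routes then share TFIIH, which opens the helix, XPA, and the endonucleases XPF-ERCC1 and XPG. The animals were not irradiated, so the comparison addresses how steady-state messenger RNA differed between the strains without induced damage.

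A gene entered the comparison when 2 or more of the 4 libraries held 10 or more of its counts, which left 17395 genes, 16086 of them protein-coding. Levels are given as CPM, the counts relative to the library's total, scaled between libraries by TMM, a method that assumes most genes do not change. A gene was described as higher in *xpc-1* when both *xpc-1* libraries lay above both *csb-1* libraries, and as lower when both lay below. Where a gene reached 10 counts only in the 2 libraries of 1 strain, the count minimum largely set its side. The gap is the log2 distance between the nearest libraries of the 2 strains, and a gap of 1 or more means that the strains were at least 2-fold apart.

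The *csb-1* libraries differed far more from each other than the *xpc-1* libraries did. The SD across genes of the log2 difference between replicates was 0.62 for *xpc-1* and 2.65 for *csb-1*, and 1300 genes were over 2-fold apart between the *xpc-1* replicates against 10019 between the *csb-1* replicates. *csb-1* replicate 2 stood apart, with a TMM factor of 0.727 where the other 3 libraries had 1.11 to 1.12. Transcripts of the cytosolic ribosomal proteins summed to 73160 and 78980 CPM in *xpc-1*, against 43620 CPM in *csb-1* replicate 1 and 341700 CPM in *csb-1* replicate 2. Sums over 9 intestine markers were 1936 and 2165 CPM in *xpc-1*, against 1091 and 16200 CPM in *csb-1*, and sums over 14 germ-line markers were 414.5 and 429 CPM, against 646 and 100.1 CPM. In bulk RNA, fewer cells of a type and less RNA per cell cannot be told apart. The part of these library differences in the results below was not tested, so named genes are given with the value of each *csb-1* library, and most gene lists with the median found when each *csb-1* library was left out.

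**Figure D1:**
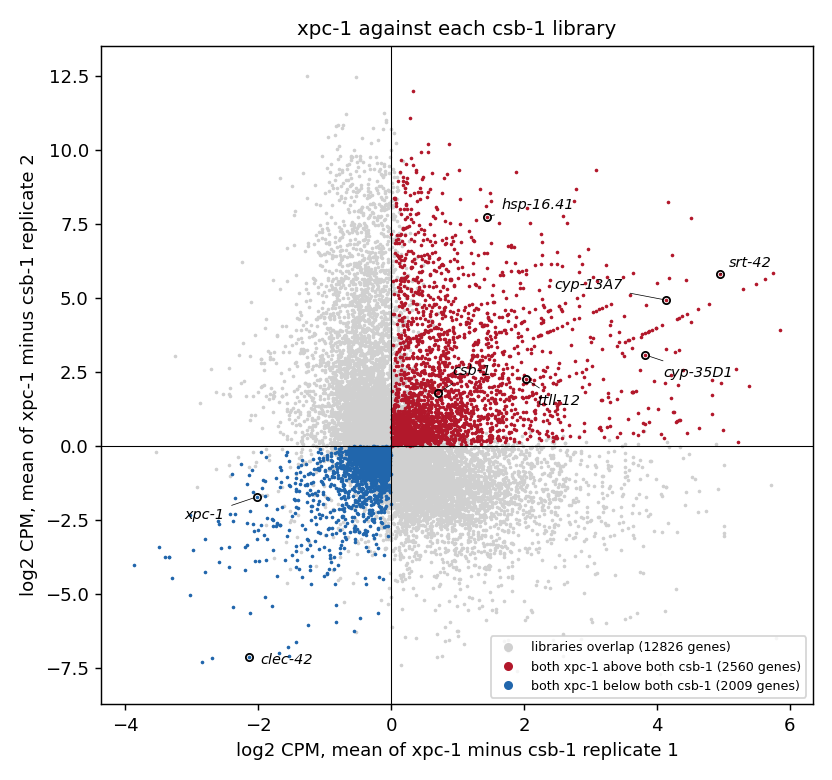
Each point is 1 of 17395 genes; the axes give log2 CPM of the *xpc-1* mean minus *csb-1* replicate 1 (horizontal) and minus *csb-1* replicate 2 (vertical). Red marks the 2560 genes with both *xpc-1* libraries above both *csb-1* libraries, blue the 2009 genes below and grey the overlapping genes, many of which lie far from 0 against 1 *csb-1* library and on the other side of 0 against the other.

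No gene passed edgeR's quasi-likelihood test at a Benjamini-Hochberg adjusted p of 0.05 (percent called 0.0), although 234 genes had an unadjusted p below that value (1.35% of those tested), 211 of them higher in *xpc-1* (1.21%) and 23 lower (0.132%). DESeq2 called 24 genes (0.138%), 23 higher in *xpc-1* (0.132%) and 1 lower (0.00575%). With *csb-1* replicate 1 left out, edgeR called 10691 of 16891 genes (63.3%), and with *csb-1* replicate 2 left out 3011 of 16989 (17.7%), while leaving out either *xpc-1* library gave 0 calls. With 1 *csb-1* library left, the test assumes that this library varies like the *xpc-1* pair, which the *csb-1* pair did not. The results below are therefore mostly descriptions of where the libraries lie, and an exact permutation test of 2 libraries against 2 cannot give a two-sided p below 0.333.

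By position of the libraries, 2560 genes were higher in *xpc-1* (14.7% of those tested) and 2009 were lower (11.5%), 26.3% in either direction. At least 2-fold apart were 501 higher genes (2.88%) and 72 lower genes (0.414%), 3.29% together. Among the 9078 protein-coding genes with a mean of 10 CPM or more, 823 were higher (9.07%) and 1326 lower (14.6%). The genes higher in *xpc-1* had a median level of 3.15 CPM and 87.1% were protein-coding, the lower genes had 24.9 CPM and 95.1%, and all tested genes 11.9 CPM and 92.5%. Scaling moved this split. With library size alone the counts were 3535 higher and 898 lower, so the higher share of non-overlapping genes was 79.7%, against 56.0% with TMM, and the median log2 fold change of all genes moved up by 0.23. Of the 2009 lower genes, 848 kept their side under that scaling.

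The targeted genes were examined first. The *xpc-1* gene (WBGene00022296, WBcel235 chromosome IV, 1993089 to 2008993), which encodes the lesion recognition factor, was at 17.5 and 17.2 CPM in *xpc-1* larvae, 70.6 and 57.2 CPM in *csb-1* larvae and 42.3 and 39.4 CPM in wild-type. All *xpc-1* values lay below the others. Its log2 fold change was -1.88 (SE 0.31, edgeR adjusted p of 0.9996), and -1.69 without *csb-1* replicate 1 and -2.02 without *csb-1* replicate 2. The *csb-1* gene (WBGene00000803, chromosome X, 15861294 to 15865918), which encodes the Cockayne syndrome B ortholog of transcription-coupled repair, was at 27.7 and 27.5 CPM in *xpc-1* larvae, 16.9 and 7.97 CPM in *csb-1* larvae and 19.98 and 22.5 CPM in wild-type. Its log2 fold change was 1.15 (SE 0.52, edgeR adjusted p of 0.9996), and it ranged from 0.71 without *csb-1* replicate 2 to 1.82 without *csb-1* replicate 1. Each strain was thus lowest for the gene its label names. Reads were counted over whole genes, so a transcript that lacks only the deleted part still counts.

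The partners in damage recognition were close between strains. *rad-23*, which encodes the XPC partner, was at 159 and 169 CPM in *xpc-1* and 143 and 154 CPM in *csb-1*, and *ddb-1*, which encodes a damage-binding adaptor of ubiquitin ligases, was at 89.8 and 86.2 CPM in *xpc-1* and 102 and 134 CPM in *csb-1*. The strains did not overlap for either gene, with gaps of 0.04 and 0.18 on the log2 scale. *csa-1*, which encodes the ubiquitin ligase receptor that works with CSB, was at 5.37 and 5.03 CPM in *xpc-1* and on both sides of these values, at 6.56 and 2.28 CPM, in *csb-1*.

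Among the 14 tested genes of the unwinding and incision steps, 0 were higher and 7 were lower in *xpc-1*, where 14.7% and 11.5% of all genes were, with a median log2 fold change of -0.33 where that of all tested genes was -0.03. The widest gap was that of *xpd-1*, a TFIIH helicase, at 28.2 and 30.7 CPM in *xpc-1* and 39.0 and 46.6 CPM in *csb-1*. The other 6 were *cyh-1* (cyclin H), *gtf-2H2C*, *gtf-2H4* and *gtf-2H5* (core TFIIH subunits) and *xpf-1* and *ercc-1*, which form the 5′ endonuclease. *xpf-1* was at 29.0 and 25.03 CPM in *xpc-1* and 39.5 and 32.0 CPM in *csb-1*. The gaps were small, from 0.01 for *ercc-1* to 0.34 for *xpd-1*, and with library size alone only 1 of the 14 stayed below and the median was -0.04. Under that scaling 5.16% of all genes were lower and the median of all genes was 0.19, so the 14 still lay below it. The median of the 14 was -0.28 without *csb-1* replicate 1 and -0.26 without *csb-1* replicate 2.

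**Figure D2:**
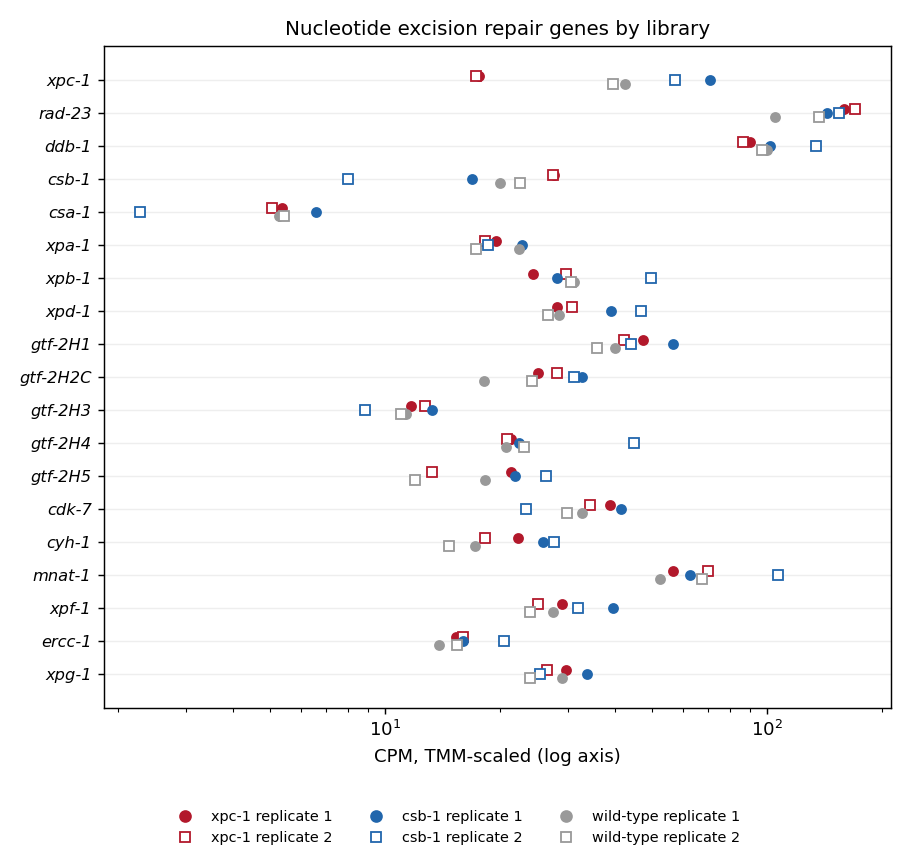
CPM on a log axis of the 19 nucleotide excision repair genes in each library, *xpc-1* in red, *csb-1* in blue and wild-type in grey, with replicate 1 filled and replicate 2 open. The *xpc-1* gene is lowest in *xpc-1* larvae and the *csb-1* gene lowest in *csb-1* larvae, while most other genes lie within a narrow range.

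Other DNA damage response and repair genes had 1 of 40 higher and 11 lower (27.5%, against 11.5% of all genes) and a median of -0.11. The widest gaps were those of *hus-1*, a subunit of the 9-1-1 checkpoint clamp, at 3.33 and 2.89 CPM in *xpc-1* and 4.46 and 6.78 CPM in *csb-1*, and of *rev-1*, a translesion polymerase, at 20.8 and 19.4 CPM and 25.4 and 31.4 CPM. *polq-1*, the polymerase of theta-mediated end joining, was at 21.1 and 22.9 CPM in *xpc-1* and 27.7 and 31.6 CPM in *csb-1*. None of the 40 was 2-fold apart. With library size alone 3 were higher and 1 lower and the median was 0.13. It was 0.06 without *csb-1* replicate 1 and -0.27 without *csb-1* replicate 2, so its sign turned with the scaling and the library left out. The median of all tested genes moved as well. It was -0.03 with TMM, 0.19 with library size alone, and 0.09 and 0.015 without *csb-1* replicate 1 and 2. The median of this group lay below that of all genes in each of these fits.

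The widest gaps lay on the side of higher levels in *xpc-1*. *srt-42*, a member of the T class of serpentine receptors (chromosome V, 1807450 to 1809468), was at 86.0 and 94.7 CPM in *xpc-1* and at 2.91 and 1.59 CPM in *csb-1*, with 85.5 and 99.1 CPM in wild-type. The mean level was 40.1 times as high in *xpc-1*, with a log2 fold change of 5.32 (SE 0.50) and a DESeq2 adjusted p of 5.99e-11. Both *csb-1* libraries stood far below all 4 others. Without *csb-1* replicate 1 the log2 fold change was 5.85 and without *csb-1* replicate 2 it was 4.96.

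The other genes with a wide gap in this direction were of mixed kinds. C25F9.2 was at 252 and 230 CPM in *xpc-1*, 13.4 and 0.769 CPM in *csb-1* and 368 and 335 CPM in wild-type. ZK1053.2 was at 25.7 and 27.8 CPM in *xpc-1* and 2.70 and 1.57 CPM in *csb-1*. *swt-6*, of the SWEET family of sugar transporters, was at 22.3 and 21.2 CPM in *xpc-1* and 4.33 and 3.73 CPM in *csb-1*, close within each strain, and DESeq2 called it with an adjusted p of 0.0251. *ttll-12*, of the tubulin tyrosine ligase-like family (chromosome II, 9338890 to 9341394), was the most abundant of the 12, at 477 and 478 CPM in *xpc-1*, 117 and 100 CPM in *csb-1* and 467 and 482 CPM in wild-type. Its log2 fold change was 2.14 (SE 0.34), 2.28 without *csb-1* replicate 1 and 2.04 without *csb-1* replicate 2. *irg-2*, an infection response gene, was at 49.3 and 44.3 CPM in *xpc-1* and 9.72 and 2.33 CPM in *csb-1*. These genes were chosen for their gap at a mean of 10 CPM or more, so a test against either *csb-1* library alone adds nothing to it.

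In the opposite direction the gaps were narrower, and *csb-1* replicate 2 often lay far above *csb-1* replicate 1, the nearer library. *clec-42*, which encodes a C-type lectin, was at 0.823 and 0.950 CPM in *xpc-1* and at 3.96 and 126 CPM in *csb-1*, and was the only lower gene that DESeq2 called (adjusted p = 0.0282). *lys-7*, a lysozyme gene, was at 0.736 and 0.259 CPM in *xpc-1* and 1.47 and 58.9 CPM in *csb-1*, and *adh-1*, an alcohol dehydrogenase gene, was at 23.7 and 25.6 CPM and 45.9 and 374 CPM. Their *csb-1* replicates lay many-fold apart. *lipl-2*, a lipase-like gene, was more alike within *csb-1*, at 3.49 and 4.06 CPM in *xpc-1* and 12.5 and 23.4 CPM in *csb-1*. The closest replicates were those of DH11.2, at 52.4 and 51.2 CPM in *xpc-1*, 95.4 and 97.9 CPM in *csb-1* and 55.7 and 48.7 CPM in wild-type, with a log2 fold change of -0.90 (SE 0.27). *cysl-3*, of the cysteine synthase family, was at 11.1 and 11.3 CPM in *xpc-1* and 24.1 and 19.4 CPM in *csb-1*.

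**Figure D3:**
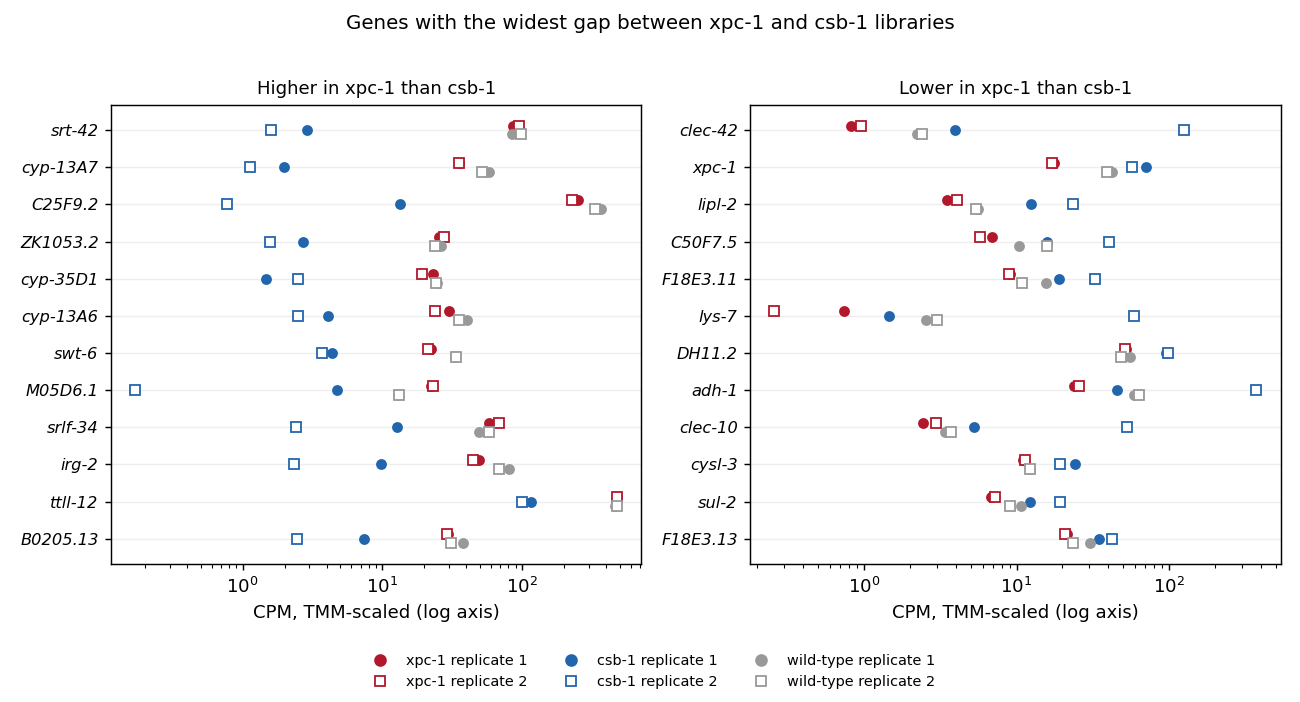
CPM on a log axis in each library for the 12 genes with the widest gap higher in *xpc-1* (left) and the 12 lower in *xpc-1* (right), with *xpc-1* in red, *csb-1* in blue and wild-type in grey. On the left both *csb-1* libraries lie below the 4 others, as *srt-42* at 2.91 and 1.59 CPM; on the right *csb-1* replicate 2 often lies far above *csb-1* replicate 1, as *clec-42* at 126 against 3.96 CPM.

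Cytochromes P450, the oxidative enzymes of xenobiotic and lipid metabolism, had the highest share of members on the higher side among these lists after the *hsp-16* genes, markers apart. Of 72 tested, 34 were higher in *xpc-1* (47.2%) and 4 were lower (5.56%), against 14.7% and 11.5% of all genes. At least 2-fold higher were 14 of the 72, where 2.88% of all genes were. The median log2 fold change of the 72 was 0.50, and it was 0.83 without *csb-1* replicate 1 and 1.09 without *csb-1* replicate 2. In these fits edgeR called 32 members higher and 12 lower, and 30 higher and 4 lower, where the shares of all genes called were 34.4% higher and 28.9% lower without *csb-1* replicate 1, and 10.8% higher and 6.96% lower without *csb-1* replicate 2. By library size alone 36 of the 72 were higher (50%) and 1 was lower (1.39%), where 20.3% and 5.16% of all genes were.

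The *cyp-13* genes had 9 of 13 members on the higher side and the *cyp-35* genes 8 of 10, with 0 lower in either. *cyp-13A7* was at 35.2 and 35.4 CPM in *xpc-1*, 1.98 and 1.14 CPM in *csb-1* and 58.2 and 52.2 CPM in wild-type, a log2 fold change of 4.50 (SE 0.52) with a DESeq2 adjusted p of 9.74e-08. *cyp-13A6* was at 29.8 and 23.7 CPM in *xpc-1* and 4.07 and 2.48 CPM in *csb-1*, and *cyp-13A5* at 35.2 and 31.1 CPM and 6.398 and 9.74 CPM. Together with *cyp-13A4* and *cyp-13A8*, these genes follow each other on chromosome II between 9795848 and 9807532, and all 5 were at least 2-fold higher. The next genes in that array, *cyp-13A3* and *cyp-13A2*, overlapped between strains, *cyp-13A3* being at 1.41 and 1.53 CPM in *xpc-1* and 2.52 and 0.683 CPM in *csb-1*. *cyp-35D1* was at 23.2 and 19.1 CPM in *xpc-1*, 1.47 and 2.48 CPM in *csb-1* and 24.7 and 24.2 CPM in wild-type, with a DESeq2 adjusted p of 0.000603. Among the *cyp-35* genes, *cyp-35A2* overlapped between strains, at 28.3 and 28.2 CPM in *xpc-1* and 12.9 and 122 CPM in *csb-1*. These are families of similar sequence, and how reads of similar members were divided is uncertain.

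**Figure D4:**
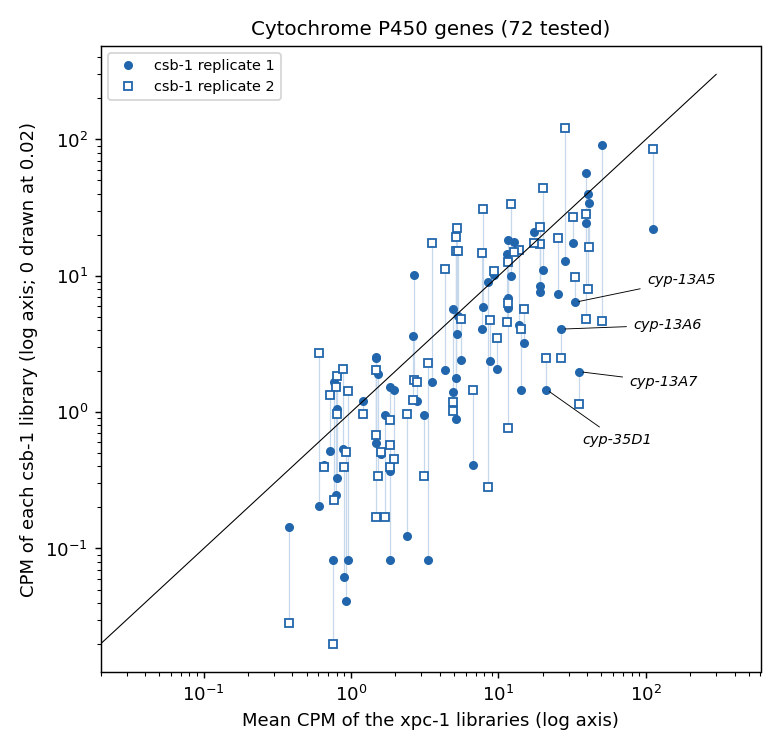
Mean CPM of the *xpc-1* libraries (horizontal) against CPM in *csb-1* replicate 1 (filled) and replicate 2 (open), both on log axes, for the 72 cytochrome P450 genes tested; a vertical line joins the values of a gene and the diagonal marks equal levels. The named genes lie below the diagonal in both *csb-1* libraries, while others, such as *cyp-35A2* at 122 CPM in *csb-1* replicate 2, lie on both sides.

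Conjugating enzymes, which act on the products of such oxidation, had a smaller share on the higher side. Of 110 glucuronosyl and glutathione transferases, 28 were higher in *xpc-1* (25.5%, against 14.7% of all genes) and 3 lower, with a median of 0.03, and the median was -0.41 without *csb-1* replicate 1 and 0.87 without *csb-1* replicate 2. *gst-33* was at 29.4 and 26.2 CPM in *xpc-1* and 8.71 and 5.07 CPM in *csb-1*, and *ugt-1* at 10.5 and 9.85 CPM and 3.96 and 5.07 CPM. Nuclear hormone receptors, ligand-regulated transcription factors that are numerous in this species, had 47 of 232 higher (20.3%) and 29 lower (12.5%), against 14.7% and 11.5% of all genes, and medians of 0.01 without *csb-1* replicate 1 and 0.11 without *csb-1* replicate 2. *nhr-178* was at 11.8 and 11.7 CPM in *xpc-1* and 3.07 and 3.07 CPM in *csb-1*, and *nhr-247* at 4.29 and 5.42 CPM and 0.578 and 0.399 CPM, called by DESeq2 with an adjusted p of 0.0095.

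The *hsp-16* small heat shock proteins are chaperones induced by heat and other protein stress. All 6 tested genes were higher in *xpc-1*, against 14.7% of all genes, with a median log2 fold change of 2.44. *hsp-16.41* was at 1925 and 1633 CPM in *xpc-1*, 649 and 8.20 CPM in *csb-1* and 1417 and 1203 CPM in wild-type, and *hsp-16.2* at 1636 and 1594 CPM, 690 and 13.04 CPM and 1373 and 1165 CPM. Summed over the family, the level was 4053 and 3448 CPM in *xpc-1* and 1459 and 23.9 CPM in *csb-1*. The *csb-1* replicates were thus far apart, and the median was 7.01 without *csb-1* replicate 1 and 1.48 without *csb-1* replicate 2. Of these 6 genes, 4 are near-identical copies (2 gene IDs named *hsp-16.1* and 2 named *hsp-16.48*), so their separate values are uncertain.

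Other chaperones had 7 of 44 higher (15.9%, near the 14.7% of all genes) and 9 lower (20.5%, against 11.5%), with medians of -0.24 without *csb-1* replicate 1 and -0.01 without *csb-1* replicate 2. *hsp-110*, a co-chaperone of Hsp70, was at 1971 and 1971 CPM in *xpc-1*, 875 and 573 CPM in *csb-1* and 1937 and 2104 CPM in wild-type, with a log2 fold change of 1.44 (SE 0.52). *hsp-4*, the BiP ortholog of the endoplasmic reticulum, was at 1214 and 1265 CPM in *xpc-1* and 655 and 240.5 CPM in *csb-1*. *hsp-70*, the inducible cytosolic Hsp70, was at 917 and 869 CPM in *xpc-1* and 440 and 1.37 CPM in *csb-1*. The counts of this group moved with the scaling, to 10 higher and 2 lower with library size alone, where 20.3% and 5.16% of all genes were.

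Neuropeptide and neuropeptide-like genes had 5 of 98 higher (5.10%) and 3 lower (3.06%), both below the 14.7% and 11.5% of all genes. *nlp-29*, an epidermal antimicrobial peptide gene induced by fungal infection and wounding, was at 118.9 and 75.4 CPM in *xpc-1*, 31.1 and 14.3 CPM in *csb-1* and 141 and 71.8 CPM in wild-type. *nlp-34* was at 66.4 and 37.8 CPM in *xpc-1* and 17.7 and 9.37 CPM in *csb-1*, and *nlp-30* at 46.2 and 24.97 CPM and 11.99 and 1.79 CPM. *nlp-32* was at 3.64 and 2.16 CPM in *xpc-1* and 0.289 and 0.569 CPM in *csb-1*. These 4 genes were the members at least 2-fold higher, where 2.88% of all genes were, and are named for that. For *nlp-29* the log2 fold change was 2.096 (SE 0.55), 2.79 without *csb-1* replicate 1 and 1.65 without *csb-1* replicate 2. Adjacent members did not all follow: *nlp-31* was at 96.4 and 56.5 CPM in *xpc-1* and 62.5 and 7.32 CPM in *csb-1*. Over the whole list the median was -0.83, opposite in sign to these members, and -1.51 and 1.00 without *csb-1* replicate 1 and 2.

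Cuticle collagens, which are made in a wave before each molt, differed by subgroup. Of 129 genes named col, 42 were higher in *xpc-1* (32.6%, against 14.7% of all genes) and 4 lower (3.10%, against 11.5%). At least 2-fold higher were 10 of the 129, where 2.88% of all genes were. The median of the 129 was 0.95 without *csb-1* replicate 1 and 0.66 without *csb-1* replicate 2. *col-17* was at 1.60 and 1.30 CPM in *xpc-1*, 0.0413 and 0.0569 CPM in *csb-1* and 4.24 and 3.08 CPM in wild-type. Its *csb-1* values were very low, so it passed the count minimum only through the *xpc-1* libraries, as did *col-90* and the body-shape collagen *sqt-1*. The count minimum thus largely set their side. The DESeq2 call of *col-17* (adjusted p = 0.0282) therefore adds no support. The 19 furrow and body-shape collagens summed to 7585 and 7343 CPM in *xpc-1*, against 12640 CPM in *csb-1* replicate 1 and 21.5 CPM in *csb-1* replicate 2. Their median was 3.65 without *csb-1* replicate 1 and -0.66 without *csb-1* replicate 2, so its sign turned with the library left out, although 5 of the 19 were higher (26.3%) and 0 lower. Molting and apical matrix genes had 1 of 19 higher (5.26%), with medians of 4.13 without *csb-1* replicate 1 and -0.53 without *csb-1* replicate 2. It was the astacin protease gene *nas-36* at 8.25 and 8.88 CPM in *xpc-1* and 5.12 and 3.93 CPM in *csb-1*.

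Chemoreceptor genes were higher for 23.5% of 446 tested members and lower for 46 of them (10.3%), against 14.7% and 11.5% of all genes. At least 2-fold higher were 38 of the 446 and lower 8, where 2.88% and 0.414% of all genes were. *srd-63* and *srt-32* passed the count minimum only through the *xpc-1* libraries, and *str-190* only through the *csb-1* libraries, which largely set their side. At least 2-fold higher and lower were 26 and 24 of 367 without *xpc-1* replicate 1. Without *xpc-1* replicate 2 they were 17 and 24 of 361. The median of the 446 was -0.25 without *csb-1* replicate 1 and 0.63 without *csb-1* replicate 2. Apart from *srt-42* their levels were low: *srsx-6* was at 6.36 and 5.23 CPM in *xpc-1* and 0.702 and 0.427 CPM in *csb-1*, called by DESeq2 with an adjusted p of 0.0075, and its neighbour *srsx-7* at 5.54 and 5.12 CPM and 0.908 and 0.740 CPM. Genes of the F-box and MATH-BTB families, adaptors of ubiquitin ligases, had 62 of 333 higher (18.6%, near the share of all genes) and 18 lower (5.41%), with a median of 1.89 without *csb-1* replicate 1 and -0.07 without *csb-1* replicate 2. Hedgehog-related and Patched-related genes had 15 of 77 higher (19.5%) and 2 lower (2.60%), and histone genes 10 of 38 higher (26.3%) and 0 lower. For both, the larger part of the difference lay in *csb-1* replicate 2: the medians were 3.28 and 2.86 without *csb-1* replicate 1, and -0.14 and 0.01 without *csb-1* replicate 2.

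The genes of protein synthesis and energy metabolism were set apart mainly in *csb-1* replicate 2. Of 81 cytosolic ribosomal protein genes, 0 were higher and 0 lower, since the *csb-1* libraries lay on opposite sides of *xpc-1*, and the median was -2.18 without *csb-1* replicate 1 and 0.82 without *csb-1* replicate 2. *rps-1*, for example, was at 1313 and 1475 CPM in *xpc-1* and 827 and 6623 CPM in *csb-1*. Mitochondrial ribosomal proteins had 0 of 70 higher and 11 lower (15.7%), the respiratory chain 0 of 42 and 7 (16.7%), translation factors 0 of 38 and 6 (15.8%), and the proteasome 1 of 31 and 8 (25.8%), where 11.5% of all genes were lower. Their medians, in this order, were -0.98, -1.24, -0.92 and -0.91 without *csb-1* replicate 1 and turned to 0.17, 0.07, 0.22 and 0.01 without *csb-1* replicate 2. In the proteasome, *rpt-1*, an ATPase of the regulatory particle, was at 67.4 and 67.6 CPM in *xpc-1* and 79.5 and 132 CPM in *csb-1*. C-type lectins were lower for 18 of 132 (13.6%) and higher for 15 (11.4%), with medians of -1.48 without *csb-1* replicate 1 and 0.24 without *csb-1* replicate 2. Lysozymes and saposin-like proteins were lower for 6 of 39 (15.4%) and higher for 3 (7.69%), with medians of -2.34 and 0.51 in the same order. SR splicing factors and heterochronic genes, 8 tested in each list, had 0 on either side, and RNA polymerase II subunits had 2 of 12 on each side, *rpb-3* at 55.2 and 60.7 CPM in *xpc-1* and 53.6 and 53.7 CPM in *csb-1*.

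For the smaller lists, 14.7% higher and 11.5% lower among all genes are again the background. DNA replication genes had 2 of 31 higher (6.45%), *mcm-2* and *mcm-6*, helicase subunits at 137 and 144 CPM in *xpc-1* and 134 and 92.5 CPM in *csb-1*, and at 116 and 114 CPM and 110 and 99.6 CPM. The median of the replication genes was 0.68 without *csb-1* replicate 1 and -0.36 without *csb-1* replicate 2. Cell cycle genes had 1 of 23 on each side (4.35%) and medians of 1.07 and -0.37 in the same order, and *cdk-2* was at 12.3 and 11.9 CPM in *xpc-1* and 18.7 and 15.0 CPM in *csb-1*. Starvation genes and targets of the transcription factor DAF-16 had 2 of 12 on each side (16.7%), with medians of -0.64 without *csb-1* replicate 1 and 0.18 without *csb-1* replicate 2. The linker histone gene *hil-1* was at 2.34 and 3.67 CPM in *xpc-1* and 6.91 and 9.34 CPM in *csb-1*, and *sod-3*, a mitochondrial superoxide dismutase gene, at 0.953 and 1.34 CPM and 1.65 and 2.56 CPM. Fatty acid synthesis and desaturation had 1 of 17 lower, molting transcription factors 1 of 8 lower (*myrf-1*) and collagen processing enzymes 1 of 6 lower (*pdi-2*).

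Markers of cell types were listed to show what the whole animals held. Muscle markers were higher for 1 of 15, neuron markers for 2 of 12 and epidermis markers for 0 of 6, with 0 lower in each, where 14.7% of all genes were higher and 11.5% lower. Intestine markers had 0 of 9 higher and 3 lower, with medians of -2.47 without *csb-1* replicate 1 and 0.37 without *csb-1* replicate 2, of which *elt-2*, the GATA factor of the intestine, was at 26.4 and 25.05 CPM in *xpc-1* and 27.7 and 28.5 CPM in *csb-1*, while *pept-1*, a peptide transporter, was at 71.4 and 68.6 CPM and 72.2 and 570 CPM. Germ-line markers had 0 of 14 higher and 2 lower, *pgl-1* at 19.4 and 19.6 CPM in *xpc-1* and 40.6 and 23.2 CPM in *csb-1*, and *glh-1*, with medians of 2.69 without *csb-1* replicate 1 and -0.51 without *csb-1* replicate 2. Adult markers were at or near 0: the 5 tested yolk genes summed to 6.50 and 7.93 CPM in *xpc-1* and 7.18 and 1.31 CPM in *csb-1*, with 4 of the 5 higher and 0 lower. Only 4 of 31 sperm genes passed the count minimum, 2 of them higher and 0 lower, and the adult cuticle collagen *col-19* did not. The 2 higher sperm genes, *msp-36* and *msp-76*, and the yolk genes *vit-4* and *vit-5* passed only through the *xpc-1* libraries. The count minimum thus largely set their side.

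**Figure D5:**
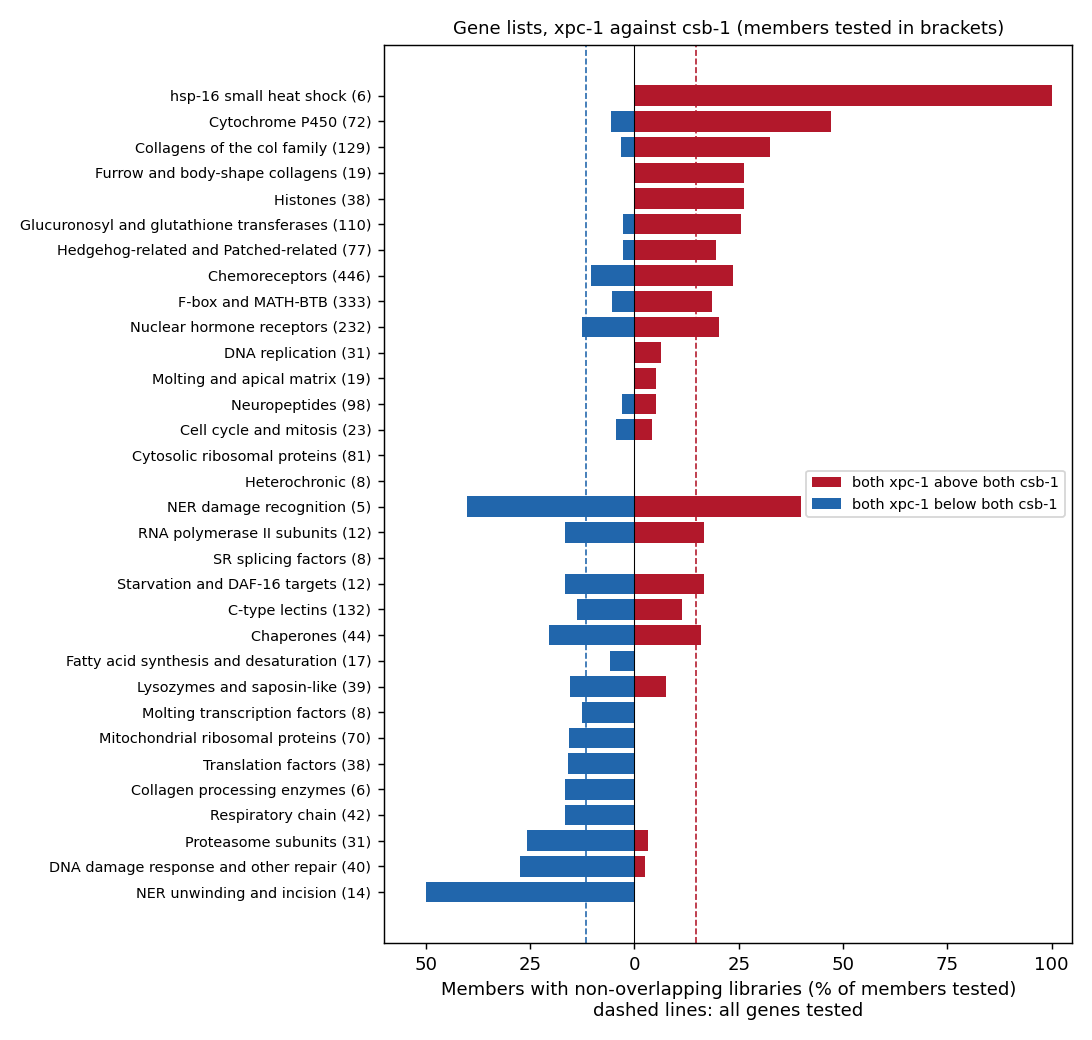
Share of tested members of each gene list whose libraries did not overlap, in percent, with both *xpc-1* libraries above both *csb-1* libraries in red to the right and below in blue to the left; the number tested is in brackets and dashed lines mark the 14.7% and 11.5% of all genes. Lists of cell type markers are not shown. Of the lists shown, *hsp-16*, at 6 of 6, and cytochromes P450, at 47.2%, extend farthest to the right. Unwinding and incision genes, at 7 of 14, extend farthest to the left.

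Genes at least 2-fold higher in *xpc-1* were most frequent on chromosome V, at 182 of 3780 genes (4.82%), and least frequent on chromosome III, at 44 of 2516 (1.75%), against 2.88% of all genes. These counts were not repeated with a *csb-1* library left out. Within 2 Mb of the *xpc-1* gene, 62 of 560 genes were higher (11.1%) and 65 lower (11.6%), and within 2 Mb of the *csb-1* gene 62 of 513 were higher (12.1%) and 38 lower (7.41%), where the shares of all genes were 14.7% and 11.5%. Beside *xpc-1*, *zipt-15*, of the ZIP family of zinc transporters, was at 37.02 and 39.2 CPM in *xpc-1* and 53.7 and 58.2 CPM in *csb-1*. Beside *csb-1*, *pqn-36* was at 31.1 and 33.3 CPM in *xpc-1* and 16.6 and 17.9 CPM in *csb-1*.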

How the data were processed

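Counts of reads per gene for 6 libraries of untreated L1 larvae were used, 2 each of *xpc-1*, *csb-1* and wild-type. The authors aligned reads with STAR, kept properly paired reads of high mapping quality and counted them on exons, and the deposited unit is raw counts. The file headers name featureCounts 2.0.4 with the Ensembl release 105 annotation of WBcel235, whereas the study's methods name a WormBase annotation. The kit marks strand, but per the file headers the counting did not use it, so overlapping and antisense genes cannot be told apart. Both mates were counted: 62.6% to 76.3% of counts from 1 to 20 were even, so counts are not independent molecules. Libraries had 41643033 to 48371365 reads on genes. The replicates of each mutant strain differed beyond counting error, so none of these was a repeated deposit. The wild-type pair was not tested for this. Gene types came from Ensembl release 115. Sequences were not used here.

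edgeR 4.0.16 (quasi-likelihood test, TMM, R 4.3.3) was fitted to the 4 mutant libraries, with 17395 genes at 10 or more counts in 2 or more libraries called at a Benjamini-Hochberg adjusted p under 0.05. Log2 CPM used a prior count of 1. The test was tried beforehand on simulated data with equal spread in all libraries, so the unequal spread of these data was not covered. DESeq2 1.42.0 gave an adjusted p for 16720 of the genes and none for 675. Other alternatives were library size, upper-quartile and DESeq2 size factors, TPM, other count filters, halved counts, a 2-fold minimum, all 6 libraries in the fit, a replicate block and leaving out each library. The members, gene lists and tests were chosen with earlier results of these data known. Named genes were the repair genes, the 12 protein-coding genes per direction with the widest gap at a mean of 10 CPM or more, up to 6 genes with 0 counts in 1 strain and 20 or more in each library of the other, up to 4 non-overlapping members per list, and up to 3 genes per direction within 2 Mb of each targeted gene. Genes named outside this rule were chosen after their values were seen: these are *cyp-13A2*, *cyp-13A3*, *cyp-13A5*, *cyp-13A11*, *cyp-35A2*, *nlp-31*, *rps-1*, *srsx-6* and *srsx-7*, and the genes of the closing section other than those with 0 counts.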

Additional observations from a re-analysis of the deposited data

How the results depend on the processing

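The count of genes past edgeR's threshold was 0 with each other scaling, count filter, halved counts, a 2-fold minimum and all 6 libraries in the fit, and 24 with DESeq2. Leaving out 1 library gave 0 to 10691 calls, 0 without either *xpc-1* library, 3011 without *csb-1* replicate 2 and 10691 without *csb-1* replicate 1. The lone library is then assumed to vary like the other strain. Genes higher in *xpc-1* by position numbered 3349 to 8312 with 1 library left out, and lower genes 2822 to 7419. Fewer samples make non-overlap easier. Lower genes numbered 898 with library size alone and 716 with TPM; the cause was not tested. For genes at least 2-fold apart, the higher and lower counts were 978 and 327 with no filter beyond 1 count, 186 and 16 with 10 counts in every library, 205 and 30 when both replicates of each strain also had to be within 2-fold of each other (an alternative chosen after seeing the data), and 465 to 4407 and 211 to 3108 with 1 library left out. The log2 fold change of the *csb-1* gene was 0.71 to 1.82 and that of the *xpc-1* gene -2.02 to -1.69 with 1 library left out. Both of these passed edgeR's threshold only without a *csb-1* library. Neither targeted gene changed direction, but other named genes and list medians did. The log2 fold change of *ercc-1*, for example, was -0.22 with TMM and 0.08 with library size alone. Of 39 list medians, the sign changed for 8 with library size alone, 5 without *csb-1* replicate 1 and 26 without *csb-1* replicate 2. It changed for 2 without each *xpc-1* replicate and for 0 with upper-quartile or DESeq2 size factors. Of 117 list medians under these scalings, 9 moved by more than the spread between replicates, of 38 restricted to genes with a mean of 1 CPM or more 1 did, and of 156 with 1 library left out 52 did.

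Replicate numbers did not pair the libraries: across genes, the difference between replicates 1 and 2 in *xpc-1* correlated at 0.02 with that in *csb-1*. With the replicate block edgeR called 0 genes, with 102 at an unadjusted p under 0.05 where there were 234 without it.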

Other observations

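Genes at least 2-fold higher in *xpc-1*, 2.88% of those tested, lay in 17 runs of 3 or more adjacent tested genes. No run of genes lower in *xpc-1* was found, but only 0.414% of genes were at least 2-fold lower. Besides the *cyp-13A* array, a run on chromosome V between 1799726 and 1809468 held *srt-41*, *hsp-16.2*, *hsp-16.41* and *srt-42*, where *srt-41* was at 0.649 and 0.562 CPM in *xpc-1* and 0.0413 and 0.199 CPM in *csb-1*. On chromosome IV between 15891707 and 15896642, 6 adjacent genes were *srv-14* and 5 genes annotated as piRNA genes. The libraries held messenger RNA purified with poly-T beads, so counts on piRNA genes do not measure piRNA levels. A run of *abu-15*, *abu-8* and *abu-7*, genes of the activated-in-blocked-unfolded-protein-response family, lay on chromosome V, and *abu-8* was at 94.0 and 101 CPM in *xpc-1*, 27.2 and 0.911 CPM in *csb-1* and 165 and 198 CPM in wild-type. Counting did not use strand, so neighbours that overlap share reads.

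Genes with 0 counts in both libraries of a strain and 20 or more in each of the other numbered 6 for *csb-1* and 0 for *xpc-1*. Against a floor of 3 counts in each *csb-1* library, the pseudogene WBGene00014993 was at least 11.4-fold higher, *nspb-6* at least 9.63-fold, the spliced leader RNA gene *sls-2.1* at least 8.09-fold, Y53F4A.2 at least 6.58-fold, the piRNA gene *21ur-9674* at least 5.58-fold and the pseudogene WBGene00009474 at least 5.31-fold higher in *xpc-1*. All 6 had low counts in every library.

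A rule chosen after the values were seen kept genes whose replicates in both strains lay within 2-fold of each other and whose strains were at least 2-fold apart. It held 205 genes higher in *xpc-1*, 33 of them at a mean of 10 CPM or more, and 30 lower, 3 of them at that level. Beyond the genes described above, *tent-5*, which encodes a cytoplasmic terminal nucleotidyltransferase, was at 1628 and 1549.8 CPM in *xpc-1* and 583 and 323 CPM in *csb-1*. *cebp-1*, a bZIP transcription factor gene, was at 253 and 263 CPM in *xpc-1* and 102 and 64.3 CPM in *csb-1*, and the calpain gene *clp-4* at 232 and 276 CPM and 91.4 and 63.9 CPM. *tyr-2*, a tyrosinase gene, was at 62.9 and 73.8 CPM in *xpc-1* and 19.9 and 23.4 CPM in *csb-1*. *cdr-4*, of the cadmium-responsive family, was at 126 and 133 CPM in *xpc-1* and 37.2 and 55.5 CPM in *csb-1*, and the DEG/ENaC channel gene *asic-2* at 24.4 and 24.7 CPM and 6.56 and 4.16 CPM. *ttr-15*, of the transthyretin-related family, was at 220 and 192 CPM in *xpc-1*, 64.4 and 60.7 CPM in *csb-1* and 301 and 206 CPM in wild-type.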
